A study of Mus musculus with 3 samples.

Results

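Synapses are held together by adhesion proteins that reach across the cleft. On the axon side stand the neurexins, and facing them on the receiving cell are neuroligins and several families of leucine-rich repeat proteins. Behind the receiving membrane, MAGUK, Dlgap and Shank proteins form layers that tether glutamate receptors, while gephyrin anchors GABA-A and glycine receptors at inhibitory synapses. Interneurons of the medial ganglionic eminence (MGE), an embryonic brain region that supplies many cortical inhibitory cells, make and receive such synapses as they mature.

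The RNA of 33 genes of these classes was followed in cultured mouse MGE-derived neurons. The genes were taken by symbol from a list of MAGUK, Shank and Dlgap scaffolds, gephyrin, neurexins, neuroligins, Lrrtm, Slitrk and related adhesion genes, and all 33 were found among 25562 genes. Neurons came from C57Bl/6 mouse embryos at embryonic day 14 and were wild type per the sample titles. All cultures were kept 10 days and silenced overnight from day 9 with tetrodotoxin (TTX), which blocks sodium channels, and AP-5, which blocks NMDA receptors. KCl at 55 mM, which depolarizes the membrane, was then applied for 0 h (the unstimulated control), 1 h or 6 h. Strand-kept, ribosome-depleted total RNA was sequenced in 1 library per time, so intronic reads of unspliced RNA were counted beside exonic reads. There was no replicate, so each ratio compares 2 libraries and has no p-value, and its 95% interval covers counting error only. PCR copies were kept, so reads may not be independent and the intervals may be too narrow.

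The 3 libraries held 8549377 to 8996897 uniquely mapped reads, of which 24.3% to 28.9% were exonic and 20.9% to 24.4% intronic on the sense strand. Markers of MGE-derived interneurons summed to 4098, 3893 and 5572 scaled reads per 1000000 exonic reads at 0, 1 and 6 h (11 genes). Markers of astrocytes and radial glia summed to 2087, 2154 and 2343 (8 genes) and the oligodendrocyte lineage to 142, 141 and 176 (8 genes). Those of excitatory neurons held 98.2, 63.7 and 76.4 (8 genes, of which Slc17a7, Slc17a6, Neurod2 and Emx1 had 0 reads at 0 h), and those of microglia 0.446, 0.398 and 0 (4 genes). The sums of the interneuron and glial lists were larger at 6 h than at 0 h, and their part in the results was not tested. A sum is weighted to the most abundant genes. The median log2 ratio at 6 h was 0.09 for interneuron markers and 0.005 for those of astrocytes and radial glia. It was 0.52 for the oligodendrocyte lineage, of which 5 genes were measured. In RNA of a whole culture, fewer cells of a type and less RNA per cell cannot be told apart.

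Per kb of exon, the highest of the 33 at 0 h was Nxph1, which encodes a secreted ligand of neurexins made by interneurons. Its level was 212, 230 and 180 scaled exonic reads per kb of exon and 1000000 reads (RPKM) at 0, 1 and 6 h. Erbb4, the neuregulin receptor of interneurons, followed with 175, 172 and 170 RPKM, and Nrxn2 with 151, 127 and 127. Dlg4, which encodes the excitatory scaffold PSD-95, had 126, 117 and 127 RPKM, and Nlgn3 had 88.9, 73.9 and 59.7. At the low end stood Lrrtm3 with 4.63, 3.31 and 4.38 RPKM. The median of the 33 was 28.0, 29.2 and 29.5 RPKM, and the median of the 9687 genes measured at 0 h was 16.4 RPKM. The first 4 places in this order, down to Dlg4, were the same at 0 h and 6 h, while Lrrc4 stood 18th at 0 h and 6th at 6 h.

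**Figure D1:**
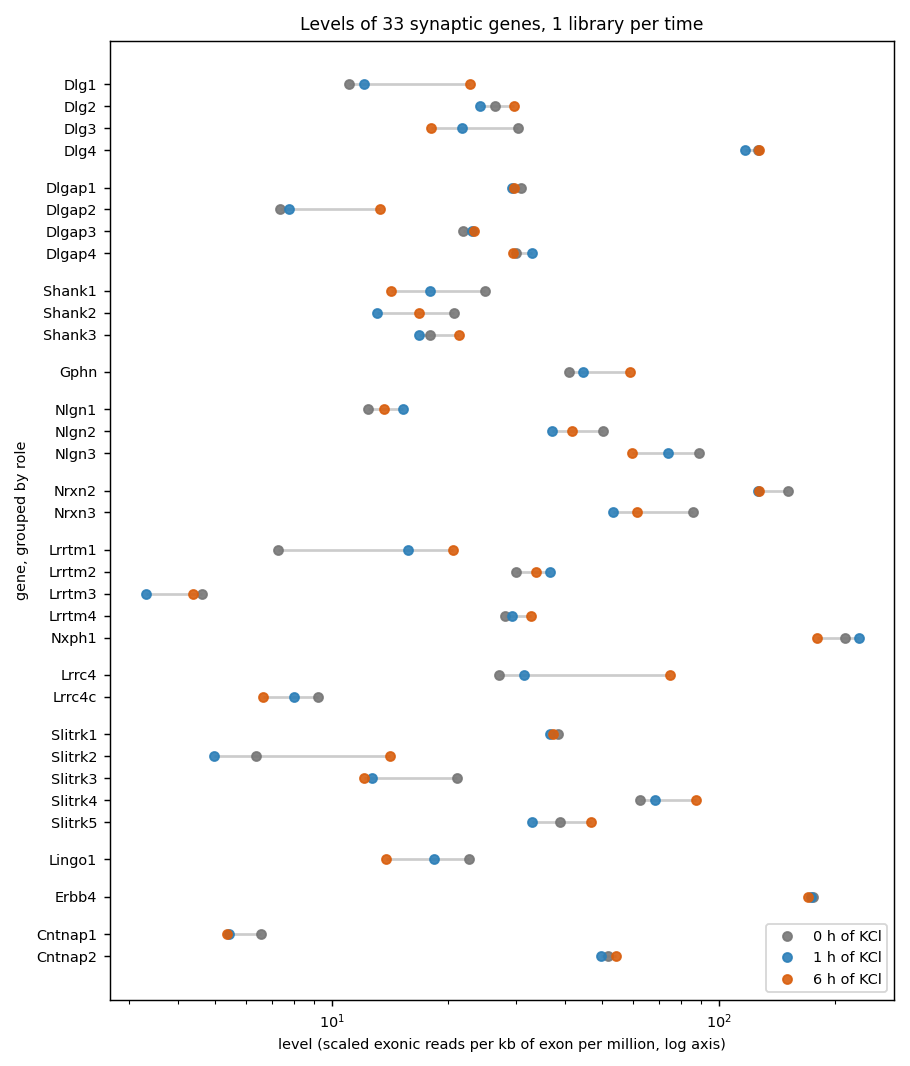
Level of each of the 33 genes in scaled exonic reads per kb of exon and 1000000 reads (log axis), with 1 point for each library at 0, 1 and 6 h of KCl and genes grouped by role down the page. Nxph1, Erbb4 and Nrxn2 lie at the right, Lrrtm3 at the left, and Lrrc4 moves to 74.7 at 6 h.

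A ratio was called when it was at least 1.5 or at most 0.667, 1 lay outside its interval, and either library held 20 reads or more. At 1 h against 0 h, exonic reads of Lrrtm1 rose and those of Slitrk3, Nrxn3 and Shank2 fell, and 29 of the 33 genes were not called. That is 3.03% higher and 9.09% lower, beside a background of 3.76% higher and 5.30% lower among 10093 genes. At 6 h against 0 h, Lrrtm1, Lrrc4, Slitrk2, Dlg1 and Dlgap2 rose and Shank1, Slitrk3, Dlg3 and Lingo1 fell. These 5 and 4 genes are 15.2% and 12.1% of the 33, beside a background of 11.6% higher and 13.2% lower among 10095 genes, so the shares lie near those of all genes. The median log2 ratio of the 33 was -0.09 at 1 h and -0.03 at 6 h, and over all genes it was 0.01 and 0.00.

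Scaling by mapped reads in place of TMM moved the median log2 ratio of all genes by 0.24 at 1 h and 0.15 at 6 h. The medians of the 33 then became 0.15 and 0.12, so their sign depends on the scaling. With mapped reads 1 gene was higher and 0 lower at 1 h, where 11.5% of all genes were higher and 1.77% lower. At 6 h 7 were higher and 3 lower, where 17.5% of all genes were higher and 8.68% lower.

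**Figure D2:**
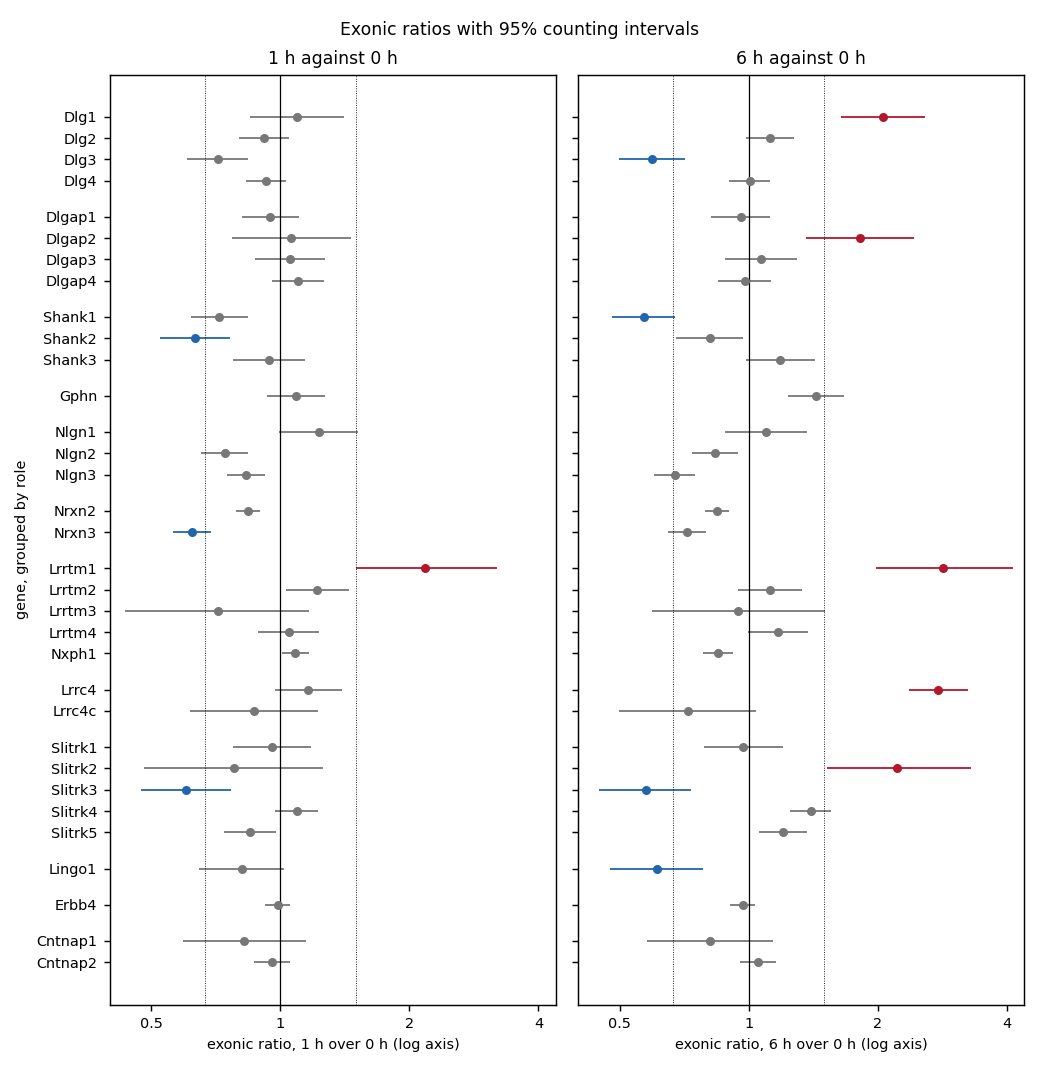
Exonic ratio of each gene at 1 h (left) and 6 h (right) over 0 h on log axes, with 95% counting intervals. Red points were called higher and blue points lower, dotted lines mark 1.5 and 0.667, and the right panel holds 5 red and 4 blue points.

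The highest ratios at 6 h belonged to Lrrtm1, Lrrc4 and Slitrk2, which encode leucine-rich repeat adhesion proteins of the receiving side. Their RefSeq promoter windows (GRCm38.p6, 250 bases before to 50 after a transcript start) are shown because these genes had the highest ratios of the 33. Capitals mark matches to any motif searched on both strands. The motifs were the cAMP response element (CRE) TGACGTCA and its core TGACG, which lies within it, the AP-1 site TGANTCA, the CArG box and the MEF2 site.
Lrrc4, chr6:28831698-28831997, minus strand: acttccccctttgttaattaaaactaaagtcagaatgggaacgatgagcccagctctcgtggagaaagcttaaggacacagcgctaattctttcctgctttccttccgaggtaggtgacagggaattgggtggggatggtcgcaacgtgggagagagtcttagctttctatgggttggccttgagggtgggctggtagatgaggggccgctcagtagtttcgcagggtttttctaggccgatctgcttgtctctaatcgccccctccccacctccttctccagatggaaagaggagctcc
Lrrtm1, chr6:77242227-77242526, plus strand: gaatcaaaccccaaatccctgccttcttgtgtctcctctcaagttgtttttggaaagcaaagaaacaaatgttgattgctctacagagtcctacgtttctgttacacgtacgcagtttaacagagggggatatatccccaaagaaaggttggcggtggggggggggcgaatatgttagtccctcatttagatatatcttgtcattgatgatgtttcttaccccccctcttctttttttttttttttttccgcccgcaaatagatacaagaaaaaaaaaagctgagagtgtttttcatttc
Slitrk2, upstream start, chrX:66649068-66649367, plus strand: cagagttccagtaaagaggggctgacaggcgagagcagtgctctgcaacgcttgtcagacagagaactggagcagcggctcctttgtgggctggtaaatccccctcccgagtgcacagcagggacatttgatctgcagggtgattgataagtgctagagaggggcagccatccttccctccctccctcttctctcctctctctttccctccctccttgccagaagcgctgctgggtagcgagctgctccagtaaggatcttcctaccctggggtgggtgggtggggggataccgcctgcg
Slitrk2, downstream start, chrX:66652909-66653208, plus strand: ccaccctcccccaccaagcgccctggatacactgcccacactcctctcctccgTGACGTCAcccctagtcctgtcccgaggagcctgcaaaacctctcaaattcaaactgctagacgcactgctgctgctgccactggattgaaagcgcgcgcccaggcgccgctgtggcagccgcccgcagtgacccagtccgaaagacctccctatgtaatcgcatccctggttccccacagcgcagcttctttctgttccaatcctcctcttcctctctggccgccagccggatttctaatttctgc
The downstream Slitrk2 window held the full CRE, beginning 197 bases before the start, and the other 3 windows held none of the motifs searched. A full CRE was present in 1.79% of all 32851 windows and in 1 of the 41 windows listed for 25 of the 33 genes. The AP-1 motif was present in 7.81% of all windows and in 2 of the 41, in windows of Lrrc4c and Nrxn3. The core was present in 20.8% of all windows and in 5 of the 41. A MEF2 site was present in 3.19% of all windows and in 1 window each of Dlg1 and Dlg2, and a CArG box in 1.63% and in none of the 41. A match is a description of these letters, and whether the genes use it was not tested.

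Lrrtm1, whose product binds neurexins from the receiving side, had 41, 100 and 123 exonic reads at 0, 1 and 6 h. Both stimulated libraries were above the unstimulated one, and the 1 h library had already most of the difference. The ratio was 2.18 (interval 1.498 to 3.21) at 1 h and 2.84 (1.98 to 4.15) at 6 h, and the 6 h to 1 h ratio was 1.30 (0.994 to 1.72), an interval that includes 1. The gene (chromosome 6, 77192711 to 77195511, mm9, 2 exons) lies within Ctnna2 on the opposite strand, which encodes an alpha-catenin. Ctnna2 had 707, 993 and 970 sense exonic reads, and antisense exonic reads of Lrrtm1 numbered 9, 4 and 10.

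The rest of this family showed no call. Lrrtm2 had 246, 336 and 292 exonic reads, with a 1 h ratio of 1.22 (1.03 to 1.44). Lrrtm4 had 278, 326 and 344 reads and Lrrtm3 40, 32 and 40. Lrrtm1, Lrrtm2 and Lrrtm3 are each nested in an alpha-catenin gene on the other strand, and of the 3 only Lrrtm1 was called.

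Lrrc4 encodes netrin-G ligand NGL-2, a partner of netrin-G on axons, and is a gene of 1 exon (chromosome 6, 28778126 to 28781747, minus strand, mm9). It had 219, 285 and 641 exonic reads at 0, 1 and 6 h, and the 6 h library stood far above the other two. The ratio was 1.16 (0.970 to 1.39) at 1 h and 2.77 (2.37 to 3.24) at 6 h, and from 1 h to 6 h it was 2.39 (2.07 to 2.75). Coding reads numbered 174, 224 and 505 and reads of the 3' untranslated region (UTR) 37, 46 and 111, with 6 h ratios of 2.74 and 2.84, so both parts of the transcript moved alike. Its level of 26.98, 31.3 and 74.7 RPKM took it from near the median of the 33 to the upper part. Snd1, which spans Lrrc4 on the opposite strand, had 346, 395 and 307 exonic reads, and antisense reads of Lrrc4 numbered 12, 9 and 7. Lrrc4c, which encodes the related ligand NGL-1, had 72, 70 and 55 exonic reads and was not called.

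Among the 5 Slitrk genes, whose products bind receptor tyrosine phosphatases of the LAR type on axons, 1 rose and 1 fell at 6 h. Slitrk2 (chromosome X, 63906334 to 63909620, mm9) had 40, 35 and 94 exonic reads. The 1 h library lay close to the 0 h library and the 6 h library above both, with a 6 h ratio of 2.22 (1.52 to 3.30) and a 6 h to 1 h ratio of 2.85 (1.91 to 4.33). Slitrk3, which organizes inhibitory synapses, had 176, 119 and 107 reads (chromosome 3, 72852047 to 72860865, minus strand, mm9).

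Both stimulated libraries were below the control for Slitrk3, at ratios of 0.603 (0.474 to 0.765) at 1 h and 0.575 (0.448 to 0.735) at 6 h. The 1 h call of Slitrk3 was lost with mapped reads and with the authors' coverage, where the ratio was up to 0.714. Slitrk4 was the highest of the family per length, at 62.7, 68.4 and 87.5 RPKM from 553, 676 and 816 reads. Its 6 h ratio of 1.40 (1.25 to 1.56) was below the fold required and passed it with mapped reads. Within Slitrk4, 3' UTR reads numbered 84, 113 and 181 and coding reads 431, 514 and 578, with 6 h ratios of 2.04 (1.56 to 2.67) and 1.27 (1.12 to 1.44), so the 3' end had the higher ratio and the intervals did not overlap. Intronic reads of Slitrk4 numbered 28, 39 and 40, with ratios of 1.90 (1.14 to 3.199) at 1 h, which was called, and 1.60 (0.964 to 2.70) at 6 h. That 1 h call was lost under 3 of 4 other scalings, at 1.24 with exonic reads. Slitrk5 had 419, 398 and 532 reads and Slitrk1 180, 193 and 185.

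On the axon side, neither neurexin gene rose in either comparison. Nrxn3 (chromosome 12, 90191843 to 91571500, mm9) had 891, 621 and 676 exonic reads, with both stimulated libraries below the control. Its ratio was 0.622 (0.560 to 0.689) at 1 h, which was called, and 0.717 (0.648 to 0.794) at 6 h, which was not. The 1 h call was lost with mapped reads and with the authors' coverage, where the ratio was up to 0.734. Nrxn2 had 1905, 1793 and 1700 reads and ratios of 0.839 (0.787 to 0.896) and 0.844 (0.790 to 0.901). Nxph1 had 1271, 1545 and 1139 reads, with ratios of 1.08 (1.01 to 1.17) at 1 h and 0.847 (0.782 to 0.919) at 6 h, neither of them called. Its first exon overlaps, on the same strand, the predicted gene LOC100040238, which had 285, 273 and 255.

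No neuroligin gene was called by exonic reads. Nlgn3, a postsynaptic partner of neurexins at both excitatory and inhibitory synapses, had 767, 715 and 545 reads. Its last exon overlaps, on the same strand, the predicted gene LOC100042407 (28, 44 and 26 exonic reads), so some reads may be shared. Its 6 h ratio was 0.672 (0.601 to 0.751), just outside the required 0.667, and 0.627 when scaled by total exonic reads. Its intronic reads, 78, 37 and 28, gave ratios of 0.646 (0.424 to 0.967) at 1 h and 0.403 (0.252 to 0.627) at 6 h, both called lower, and both calls held under all 4 other scalings. Nlgn2, which works at inhibitory synapses, had 562, 467 and 496 exonic reads. Nlgn1, which works at excitatory synapses, had 157, 216 and 182.

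Lingo1, a leucine-rich repeat protein of the Nogo receptor complex, had 167, 152 and 108 exonic reads (chromosome 9, 56466282 to 56533060, minus strand, mm9). The 6 h library was the lowest, with a ratio of 0.612 (0.476 to 0.784). That call was lost with mapped reads or the authors' coverage, where the ratio was up to 0.680. Its intronic reads of 49, 31 and 16 gave a 6 h ratio of 0.366 (0.194 to 0.655), which was called under all 4 other scalings. Erbb4 had 1690, 1866 and 1733 exonic reads and ratios of 0.985 (0.921 to 1.05) and 0.970 (0.906 to 1.04). Cntnap2, which clusters potassium channels on axons, had 818, 878 and 910 exonic reads and ratios of 0.957 (0.869 to 1.05) and 1.05 (0.956 to 1.16). Its relative Cntnap1, a protein of the paranode, had 79, 73 and 68 reads.

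Behind the membrane, the 4 MAGUK genes divided into 1 higher, 1 lower and 2 not called at 6 h. Dlg1 (chromosome 16, 31664125 to 31873432, mm9), which encodes the scaffold SAP97, had 116, 142 and 252 exonic reads. Its intronic reads were 316, 210 and 462, and the 6 h library was the highest of the 3 by both measures. The 6 h ratios were 2.05 (1.64 to 2.58) by exonic and 1.64 (1.42 to 1.90) by intronic reads, and the intronic call was lost when scaled by total intronic or exonic reads, at 1.38 with exonic reads. Coding reads of Dlg1 numbered 94, 114 and 169 and 3' UTR reads 19, 25 and 80, with 6 h ratios of 1.70 (1.31 to 2.21) and 3.98 (2.39 to 6.96). The intervals did not overlap, so the 3' end differed more than the coding part between these libraries.

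Dlg3, which encodes SAP102, a scaffold of young synapses, had 337, 270 and 212 exonic reads (chromosome X, 97963086 to 98013747, mm9). The control library was the highest, with ratios of 0.715 (0.607 to 0.841) at 1 h and 0.595 (0.499 to 0.709) at 6 h. The 6 h call was lost at 0.669 with the authors' coverage. Its 3' UTR reads of 166, 110 and 86 gave 0.490 (0.373 to 0.639) at 6 h, against 0.679 (0.531 to 0.866) for 163, 150 and 117 coding reads, with intervals that overlap. Intronic reads of Dlg3 went the other way at 1 h, with 86, 106 and 73 reads and ratios of 1.68 (1.25 to 2.26) at 1 h and 0.952 (0.687 to 1.32) at 6 h. The 1 h intronic call was lost under 3 of 4 other scalings, at 1.10 with exonic reads. Dlg4 had 653, 678 and 694 reads and a 6 h ratio of 1.01 (0.902 to 1.12). Dlg2, which encodes PSD-93, had 429, 441 and 509 reads.

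The Dlgap proteins link MAGUK scaffolds to Shank. Dlgap2 (chromosome 8, 14095875 to 14847680, mm9) had 74, 88 and 142 exonic reads, with a 6 h ratio of 1.81 (1.36 to 2.44). Its reads across splice junctions numbered 1, 12 and 10. The other 3 members did not reach the fold required: Dlgap1 had 326, 346 and 330 reads, and Dlgap4, the most abundant by reads at 378, 466 and 391, had 30.0, 32.9 and 29.3 RPKM. Dlgap1 was the highest of the group per length at 0 h, at 30.9, 29.2 and 29.5 RPKM, with ratios of 0.947 (0.811 to 1.11) at 1 h and 0.957 (0.819 to 1.12) at 6 h. Dlgap3 had 206, 243 and 233 reads.

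Shank proteins form the deepest scaffold layer. Shank1 (chromosome 7, 51565634 to 51612843, mm9) had 375, 303 and 226 exonic reads, and each stimulated library was below the control. Its ratio was 0.721 (0.617 to 0.841) at 1 h and 0.570 (0.481 to 0.674) at 6 h, which was called under all 4 other scalings. Shank2 (chromosome 7, 151470290 to 151608580, mm9) had 274, 194 and 235 reads, with 0.631 (0.523 to 0.762) at 1 h and 0.811 (0.678 to 0.969) at 6 h. The 1 h library was thus the lowest for Shank2, and its call was lost with mapped reads and with the authors' coverage, where the ratio was up to 0.748. Shank3 had 209, 220 and 262 reads and was not called.

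Gephyrin, the scaffold of inhibitory synapses encoded by Gphn, had 292, 356 and 444 exonic reads and 1495, 1292 and 1775 intronic reads. The 6 h library was the highest by both. The exonic ratio at 6 h was 1.44 (1.24 to 1.67), below the fold required, and 1.60 with the authors' coverage, where it was called. The intronic ratio was 1.33 (1.24 to 1.43).

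Introns were present in 31 of the 33 genes, and 25 had at least 20 intronic reads in 1 library. At 1 h against 0 h, 3 of the 25 were called higher (Dlgap2, Dlg3 and Slitrk4) and 1 lower (Nlgn3), which is 12% and 4%, beside a background of 15.6% higher and 12.8% lower among 8143 genes. At 6 h, 1 was higher (Dlg1) and 2 were lower (Nlgn3 and Lingo1), which is 4% and 8%, beside a background of 13.2% higher and 10.9% lower among 8236 genes. Scaling by mapped reads, total intronic reads or exonic reads moved the median log2 ratio of all genes by -0.37, -0.20 and -0.61 at 1 h, and by -0.10, -0.15 and -0.25 at 6 h. At 1 h these scalings called 0 of the 25 higher and 6, 3 and 18 lower, where 7.00%, 10.6% and 4.31% of all genes were higher and 33.2%, 21.8% and 50.0% lower. At 6 h they called 1, 0 and 0 higher and 3, 4 and 5 lower, where 9.80%, 8.402% and 6.47% of all genes were higher and 14.2%, 15.9% and 20.2% lower. The share of all genes thus moved with the scaling, as did the members' counts.

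Exonic and intronic ratios were compared within genes at 6 h. Of the 9 genes called by exonic reads, 5 had enough intronic reads. Dlg1 was called higher and Lingo1 lower by both kinds of read. Dlgap2 (1.10, interval 1.02 to 1.19), Dlg3 (0.952, interval 0.687 to 1.32) and Shank1 (0.786, interval 0.577 to 1.07) were called by exonic reads alone, and Slitrk3 with 13, 17 and 17 intronic reads was under the minimum. Nlgn3 was called by intronic reads alone.

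**Figure D3:**
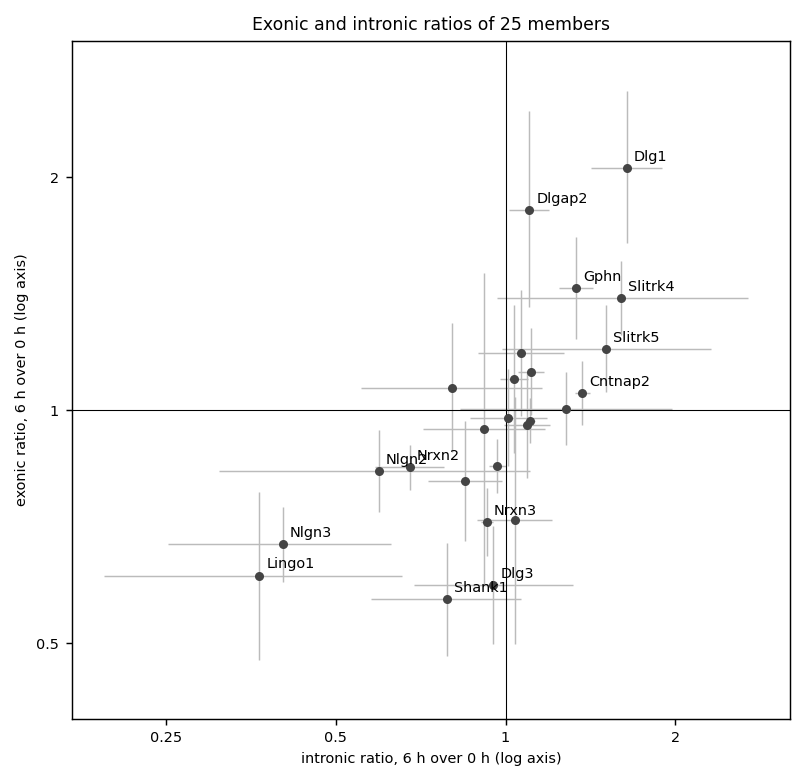
Exonic ratio (vertical) against intronic ratio (horizontal) at 6 h over 0 h for the 25 genes with at least 20 intronic reads in 1 of the libraries, both on log axes with 95% counting intervals. Dlg1 lies at the upper right, Nlgn3 and Lingo1 at the lower left, and Dlgap2 and Dlg3 lie near 1 on the horizontal axis.

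Along single genes the introns did not move alike. In Dlgap2, intron 3 (chromosome 8, 14258027 to 14531028, mm9, 273 kb) had 562, 1087 and 512 reads at 0, 1 and 6 h, a 1 h ratio of 2.63 (2.38 to 2.92). Intron 4 next to it, 164 kb long, had 393, 199 and 401 reads and a 1 h ratio of 0.689 (0.578 to 0.819), and intron 1 had 41, 15 and 17. The 1 h call of Dlgap2 therefore rested on intron 3: without it the intronic ratio was 0.780 (0.685 to 0.887). At 6 h the ratio of intron 3 was 1.02 (0.905 to 1.15). Reads were counted per intron, so where within intron 3 they lie is not known. The same-strand predicted gene LOC100041140 lies in intron 1 and had 1, 0 and 0 exonic reads.

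Cntnap2, the longest of the genes at 2241 kb, had 7674, 5626 and 9355 intronic reads, with a 6 h ratio of 1.37 (1.33 to 1.41). Intron 1, 594 kb long, had 5407, 3871 and 6922 reads and a 6 h ratio of 1.44 (1.39 to 1.49), and intron 3 had 1.47 (1.29 to 1.68) and intron 8 had 1.56 (1.32 to 1.85). In the middle of the gene, introns 10, 13 and 15 had 0.956 (0.735 to 1.24), 1.07 (0.944 to 1.21) and 1.03 (0.844 to 1.25). Near the end, intron 22 had 108, 190 and 150 reads, with 2.39 (1.88 to 3.06) at 1 h and 1.56 (1.21 to 2.01) at 6 h, and its neighbours, introns 21 and 23, had 1.44 (1.003 to 2.08) and 1.33 (0.843 to 2.10) at 6 h. Introns 1, 3 and 8 in the front and introns 21 and 22 near the end thus had 6 h intervals above 1, and introns 10, 13 and 15 between them did not. Introns 2 and 4 in the front had intervals that include 1, and intron 11 had 0.633 (0.406 to 0.973). Scaling by mapped, total intronic or exonic reads lowers all these 6 h ratios alike, while DESeq2 size factors raise them slightly. The interval of intron 21 thus lies above 1 under the main scaling but not under the scalings that lower it.

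Erbb4 and Nrxn3 also differed along their length at 6 h. In Erbb4, intron 1 (367 kb) had 12452, 8361 and 13734 reads and a 6 h ratio of 1.24 (1.21 to 1.27). Downstream, intron 3 had 0.863 (0.807 to 0.922), intron 19 had 0.647 (0.539 to 0.776) and intron 20 had 0.852 (0.783 to 0.926) at 6 h, below the first intron. In Nrxn3, intron 14 (443 kb) had 7248, 4821 and 5404 reads and a 6 h ratio of 0.836 (0.807 to 0.866). The introns behind it were higher, with 1531, 1079 and 1631 reads in intron 15, a ratio of 1.19 (1.11 to 1.28), and 1.14 (1.03 to 1.25) in intron 19. Ahead of intron 14 the ratios were mixed. Introns 2 and 8 had 0.829 (0.772 to 0.889) and 0.876 (0.807 to 0.952), and introns 4 and 13 had 1.13 (0.923 to 1.38) and 1.17 (0.758 to 1.81). Whether a single ratio lies above or below 1 can change with the scaling, which moves all introns alike, while their order stays. The 6 h intervals of Erbb4 intron 1 and of introns 3, 19 and 20 did not overlap, within 1 pair of libraries. Nor did that of Nrxn3 intron 14 overlap those of introns 15 and 19. The intervals take each read as independent. Whether these differences recur in other cultures was not tested.

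**Figure D4:**
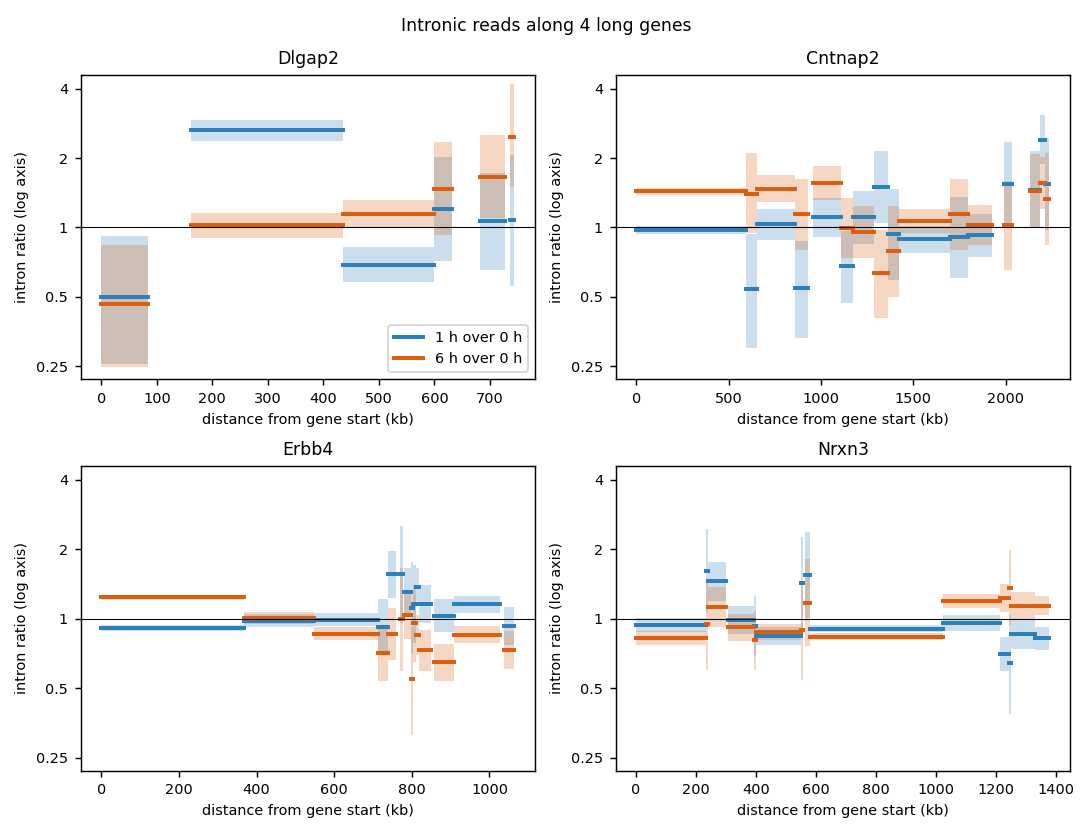
Intronic ratio over 0 h at 1 h (blue) and 6 h (orange) for each intron with at least 40 reads in 1 library, drawn from its start to its end along the distance from the gene start in kb, with shaded 95% counting intervals on a log axis. Intron 3 of Dlgap2 stands at 2.63 at 1 h, the first intron of Cntnap2 at 1.44 and that of Erbb4 at 1.24 at 6 h. With the TMM scaling drawn here, the introns of Nrxn3 drawn behind intron 14 lie above 1 at 6 h. Introns 4 and 13 ahead of it also do, with intervals that include 1.

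Reads across splice junctions showed which forms of some adhesion genes were present. In Erbb4, reads joining exon 25 to exon 27 numbered 10, 13 and 9 at 0, 1 and 6 h. Reads into the 48-base exon 26 numbered 1, 0 and 3 and reads out of it 0, 2 and 2, so skipping was seen more often than either inclusion junction in each library. An exon of this length encodes the part that sets the CYT-1 form apart from CYT-2 in ErbB4. In Nrxn2, the 90-base exon 19, of the length known for the alternative exon at splice site 4 of neurexins, had 13, 11 and 16 reads into it and 8, 7 and 7 out of it, while 1, 1 and 0 reads skipped it. In Nlgn3, the 60-base exon 3 had 4, 0 and 5 reads into it, 5, 7 and 4 out of it, and 1, 2 and 2 skipping it. The counts are too few to show a difference between times.

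For context, 66 further genes of the same pathways were read from 11 lists, chosen with earlier results of these data known. By exonic reads 0 were higher and 4 lower of 56 at 1 h (all genes 3.76% and 5.30%), and 7 were higher and 6 lower of 55 at 6 h (all genes 11.6% and 13.2%). By intronic reads 4 were higher and 3 lower of 50 at 1 h (all genes 15.6% and 12.8%), and 11 were higher and 3 lower of 50 at 6 h (all genes 13.2% and 10.9%). With mapped, total intronic or exonic reads as the scale, 8 of the 50 were higher by intronic reads at 6 h in each case. In the same order 4, 8 and 9 were lower. The shares of all genes at 6 h were 9.80%, 8.402% and 6.47% higher and 14.2%, 15.9% and 20.2% lower. At 1 h 2, 3 and 2 of the 50 were higher and 12, 9 and 28 lower. Those of all genes at 1 h were 7.00%, 10.6% and 4.31% higher and 33.2%, 21.8% and 50.0% lower. The median log2 ratio of these lists was -0.07 and 0.06 by exonic reads and -0.04 and 0.15 by intronic reads at 1 and 6 h.

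The netrin-G genes, whose products are the axonal partners of Lrrc4 and Lrrc4c, were called higher by intronic reads at 6 h. Ntng1 had 247, 175 and 419 intronic reads and Ntng2 21, 13 and 70. Exonic reads of Ntng1, 33, 35 and 45, gave no call, and those of Ntng2, 11, 7 and 11, were under the minimum of 20. The neuregulin gene Nrg1, which encodes a ligand of ErbB4, had 13, 10 and 30 exonic and 47, 46 and 154 intronic reads, and was higher by both at 6 h. Its exonic reads met the minimum in the 6 h library alone. Of the 3 neuregulin genes measured by intronic reads at 6 h, 1 other was called lower (all genes 10.9%). Of 11 contactin and further contactin-associated genes, 3 were called lower and 0 higher by exonic reads at 6 h (all genes 13.2% and 11.6%). None of the 3 LAR-type receptor phosphatase genes, whose products bind Slitrk proteins, was called in any comparison.

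Flrt3, an adhesion partner of latrophilins, had 147, 174 and 361 exonic reads and a 6 h ratio of 2.32. Of the calsyntenins, neurexin-binding proteins, Clstn1 had 1090, 632 and 603 exonic reads and Clstn3 had 1103, 1238 and 1833, so at 6 h Clstn1 was called lower and Clstn3 higher. Cadm2, a SynCAM adhesion gene, had 5006, 4083 and 9264 intronic reads against 481, 540 and 632 exonic reads, and was higher at 6 h by intronic reads alone.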

How the data were processed

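RNA of MGE-derived mouse neurons was counted in 3 libraries, 1 per time. Per the deposited counting logs, the authors kept reads of 35 bases mapping uniquely with at most 3 mismatches with an aligner not given in the sources used here, and kept repeated reads at 1 position. The build is mm9 per the submitters' processing notes. The authors' deposited counts are raw sense and antisense reads per gene, exon, intron and junction. Their coverage signal, scaled by the authors to mapped reads and mappable length, served as an alternative. Near-identical gene copies lose reads under this rule, and models sharing a strand (3 of the 33 genes) share reads. Exonic and intronic counts were each scaled by TMM (edgeR 4.0.16 in R 4.3.3), and ratios carry exact Clopper-Pearson 95% intervals (scipy 1.17.1). Log2 ratios used a pseudocount of 0.5 reads. A call needed 1.5-fold, an interval without 1 and 20 reads in 1 library. The rule was tested on simulated data with counting error alone. That test does not cover variation between cultures or repeated reads. Alternatives were DESeq2 1.42.0 size factors, total or mapped reads, the coverage, 2-fold, and minima of 0 or 50 reads. The genes and lists were chosen with earlier results of these data known. The text gives called genes and the highest per length in each role group with reads and ratios, and the rest by reads. Genes outside the 33 were named after their values were seen. The marker Dlx6 was not analysed here. Promoters are those of RefSeq (GRCm38.p6), and no coordinates were carried between builds.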

Additional observations from a re-analysis of the deposited data

How the results depend on the processing

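No paired analysis was possible because there was 1 library per time, and no library could be left out. The number of members called changed by more than 1.5 times as follows. By exonic reads at 1 h, the 3 lower members became 0 with mapped reads, with the authors' coverage and at 2-fold. Of all genes, 1.77%, 1.79% and 1.43% were lower there. By exonic reads at 6 h, the 4 lower members became 0 at 2-fold (5.42% of all genes) and 2 with the coverage (8.62%). The 5 higher members ranged from 4 at 2-fold (4.92% of all genes) to 7 with mapped reads (17.5%) or the coverage (17.3%). By intronic reads at 1 h, the 3 higher members became 0 with total intronic reads, mapped reads, exonic scaling and 2-fold (10.6%, 7.00%, 4.31% and 7.48% of all genes). The 1 lower member became 3, 6 and 18 with those 3 scalings and 0 at 2-fold, where 21.8%, 33.2%, 50.0% and 6.19% of all genes were lower. By intronic reads at 6 h, the 1 higher member became 0 with total intronic reads, exonic scaling and 2-fold. Of all genes, 8.402%, 6.47% and 5.27% were higher there. The 2 lower members became 4 and 5 with those 2 scalings (15.9% and 20.2% of all genes) and 1 with a minimum of 50 reads (9.99%). These scalings shift all ratios of a comparison by the same factor. Without intron 3, an alternative chosen after seeing the data, the 1 h intronic ratio of Dlgap2 fell below 1, to 0.780. Of 56 counts of members under an alternative, 37 stayed within 1.5 times, and of 513 other values 377 stayed within their counting interval, 0.1 on the log2 scale or, for counts of further pathway genes, 1.5 times. Genes with under 50 reads, such as Slitrk2 and Lrrtm3 at 0 h, have the widest intervals.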

Other observations

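Gphn was not called by either kind of read over the whole gene, yet some of its introns stood well above their level at 0 h. Intron 1, 117 kb long, had 197, 136 and 300 reads at 0, 1 and 6 h, a 6 h ratio of 1.71 (interval 1.42 to 2.05). Intron 2 had 571, 548 and 480 reads and a 6 h ratio of 0.943 (0.833 to 1.07), with its higher ratio at 1 h, 1.31 (1.16 to 1.47). Intron 12 had 20, 24 and 56 reads and a 6 h ratio of 3.14 (1.86 to 5.52). Introns were listed only with at least 40 reads in 1 library. Intron 12 met that minimum at 6 h alone, so the choice itself favoured a high 6 h ratio.

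In Dlg1, the long intron 4 had a 6 h ratio of 1.61 (1.19 to 2.21). Intron 12, with 19, 20 and 56 reads, had 3.31 (1.93 to 5.89). Intron 13, with 26, 25 and 50 reads, had 2.16 (1.32 to 3.61). Both met the minimum of 40 reads at 6 h alone, so their high ratios were favoured by the choice as well. In Dlgap1, reads joining exon 5 to exon 7 numbered 10, 5 and 2, and none joined the 30-base exon 6 to either neighbour. Among the 3 alpha-catenin genes that hold Lrrtm genes on their other strand, Ctnna3 had 76, 21 and 32 intronic reads and was called lower at both times, while Lrrtm3 within it had 40, 32 and 40 exonic reads.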
